A study of Mus musculus with 28 samples.

Results

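Deubiquitinating enzymes are proteases that take ubiquitin, a small protein tag, off other proteins. The genes described here are those named in both expression tables whose symbol begins with Usp and a number, Otub, Otud, Uchl or Josd, together with Atxn3 and Bap1. Usp18, whose main substrate is the ubiquitin-like protein ISG15, was left out. This gave 60 genes of 12274 gene names that the tables share. They were chosen by a naming rule that uses no measured value, with earlier results of these data known. By family, 43 were ubiquitin-specific proteases (USP), 8 ovarian tumour proteases (OTU), 5 ubiquitin C-terminal hydrolases (UCH, with Bap1) and 3 Josephin proteases. The remaining gene, Usp6nl, has a matching symbol but encodes a GTPase-activating protein for Rab proteins and no peptidase.

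Ubiquitin chains act as scaffolds in the signalling complex that forms on the TNF receptor, where they recruit the kinases that switch on the transcription factor NF-kB. Deubiquitinases trim or remove these chains, and others keep proteins such as p53, MDM2 or the interferon adaptor TRAF3 from being degraded by the proteasome. Several are also part of chromatin complexes that take ubiquitin off histones.

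RNA came from MC38, a mouse colon adenocarcinoma line, which is a single line. One table, called in vitro here, held 2 libraries each of MC38 cells given supernatant of a co-culture, TNF with interferon gamma (IFNG), TNF, or IFNG, and of untreated cells. The other table held 3 libraries each of OT1 co-culture with anti-PD1 antibody, OT1 co-culture with isotype control antibody, and MC38 alone. OT1 cells are CD8 T cells that carry a transgenic receptor for a peptide of ovalbumin, and PD1 is an inhibitory receptor of T cells. Cytokines or T cells were given for 6 hours, per the series' design text, and neither a time for supernatant nor cytokine doses are given in the sources used. The labels do not say whether T cells were removed before RNA extraction, nor that replicates came from separate cultures, so p-values measure the spread between these libraries, which may be technical.

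Libraries were made from the 3' end of transcripts, so a value does not scale with transcript length and levels can be set side by side between genes. Levels are log2 CPM as the authors deposited them, with CPM a read count scaled to the library total so that deeper libraries do not read higher. The deposited values were also made alike in distribution between the libraries of a table, as read from the values. The tables were normalized separately, so levels are compared only within a table. The number of distinct low values implied 3360000 reads for the second TNF + IFNG library to 11200000 for the first IFNG library in vitro, and 3730000 for the third library of MC38 alone to 11000000 for the third anti-PD1 library in co-culture. Folds are differences of mean log2 CPM from limma, fitted over all genes of a table, ± limma's standard error (SE), and a gene was called at a Benjamini-Hochberg adjusted p under 0.05 over all genes tested.

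In the co-culture table, 2 libraries had labels in conflict and 1 went against its label. The third anti-PD1 library is called untreated in its title and treatment field, and its description ties it to the anti-PD1 co-culture, where it was placed. The second isotype library is named for OT2 in its description and for isotype in its title and treatment field, and it was placed with the OT1 isotype co-cultures. Without it, the same 5 members were called with isotype (9.72% of all genes). Of 15 T cell markers, 12 were in the co-culture table. Their summed level was 67.6, 78.1 and 89.5 CPM in the anti-PD1 co-cultures and 80.7, 78.4 and 85.6 CPM in the isotype co-cultures, against 3.3, 4.2 and 63.6 CPM in MC38 alone. The third library labelled MC38 alone thus carried T cell transcripts nearly at the level of the co-cultures. On the lowest 3 read steps of its library lay 2 of the 12 markers in that library, against 11 and 10 in the other libraries of MC38 alone. Treatment-response genes were nevertheless called in both co-cultures. The NF-kB inhibitor gene Nfkbia was higher by 3.93 ± 0.09 with anti-PD1 and 3.91 ± 0.09 with isotype, and the interferon-response factor gene Irf1 by 3.44 ± 0.11 and 3.35 ± 0.11. Of 7 epithelial markers 5 were in the co-culture table, at a summed 1.6 to 33.3 CPM, and 1, Cdh1, was in the in vitro table, so epithelial identity was weakly marked in these libraries.

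The deubiquitinase genes were expressed above the typical gene. Their median level was 4.92 log2 CPM in vitro, against 3.89 over all genes of that table, and 4.49 in co-culture, against 3.85. Usp1, which acts on the DNA repair proteins FANCD2 and PCNA, Usp7, which acts on MDM2 and p53, and Usp5, which takes apart unanchored chains, were the 3 highest in both tables. They averaged 7.76, 7.58 and 7.36 log2 CPM in vitro and 6.86, 6.92 and 6.98 in co-culture, so their order differed between tables. At the low end in vitro stood Otub2 (0.52), Usp13 (-0.41) and Uchl1 (-0.63), and in co-culture Usp13 (-0.10), Uchl1 (-0.58) and Usp2 (-0.69). Uchl1, abundant in neurons, and Usp13 each had 2 in vitro libraries on the lowest 3 read steps, and neither was called in any comparison. By family the median level in vitro was 5.56 for the 8 OTU genes, 5.09 for the 43 USP genes, 4.48 for the 3 Josephin genes and 3.80 for the 5 UCH genes, and the same order held in co-culture (5.00, 4.61, 4.30 and 3.60).

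**Figure D1:**
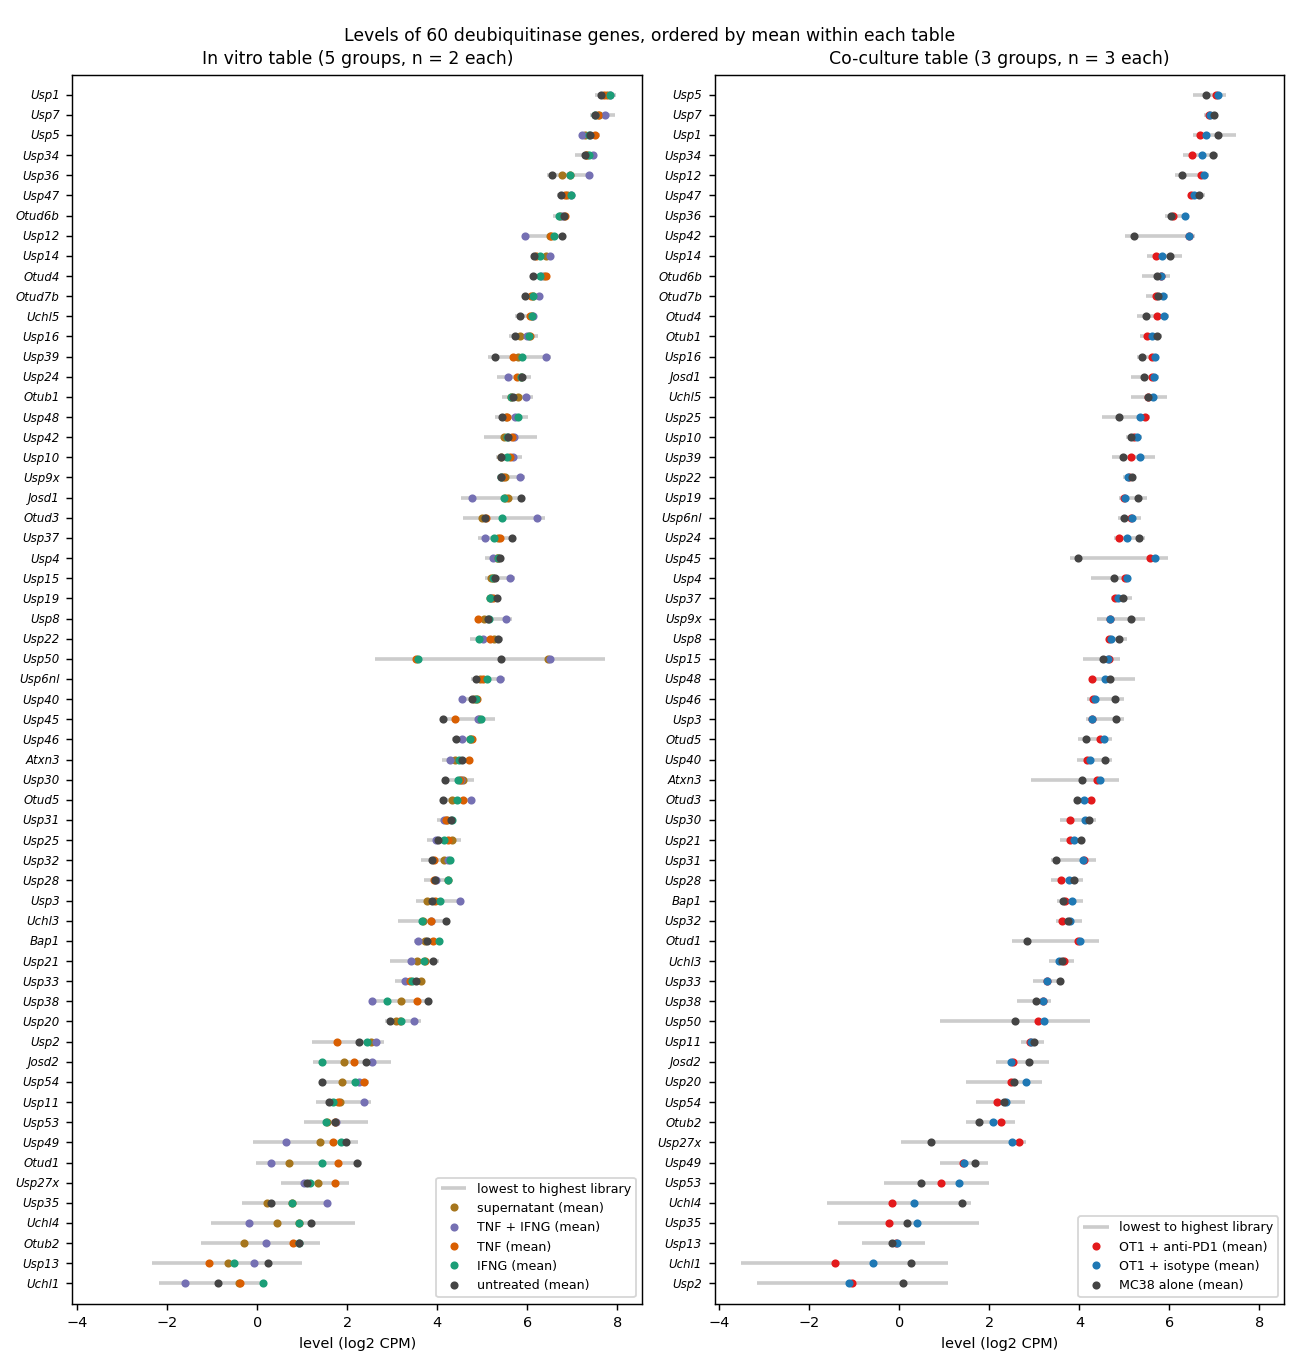
Level (log2 CPM) of each of the 60 deubiquitinase genes in the in vitro table (left) and the co-culture table (right), ordered by mean within each table. Points are group means and grey lines run from the lowest to the highest library. Most lines are short, and Usp50 in vitro and Uchl1 and Usp2 in co-culture span the widest ranges.

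Across conditions the genes varied less than the typical gene. The median range between the highest and the lowest group mean was 0.43 log2 for the deubiquitinases in vitro and 0.60 over all genes, and 0.31 and 0.45 in co-culture. The median standard deviation (SD) within a group was 0.19 against 0.26 in vitro and 0.20 against 0.28 in co-culture. Since these genes also stood at higher levels, the part of level in this was not tested. A range over 1 log2 was reached by 13 members in vitro (21.7%, against 24.9% of all genes) and by 7 in co-culture (11.7%, against 17.9%).

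In all, 15 of the 60 genes were called in at least 1 of 9 comparisons and 45 in none. The matching share of all genes was not counted, so these totals alone do not set the members apart. The calls came from 3 comparisons, each of the OT1 co-cultures against MC38 alone and TNF + IFNG against untreated cells. In each, the share of members called was of the same order as the share of all genes called, as the plot of shares by comparison shows.

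**Figure D2:**
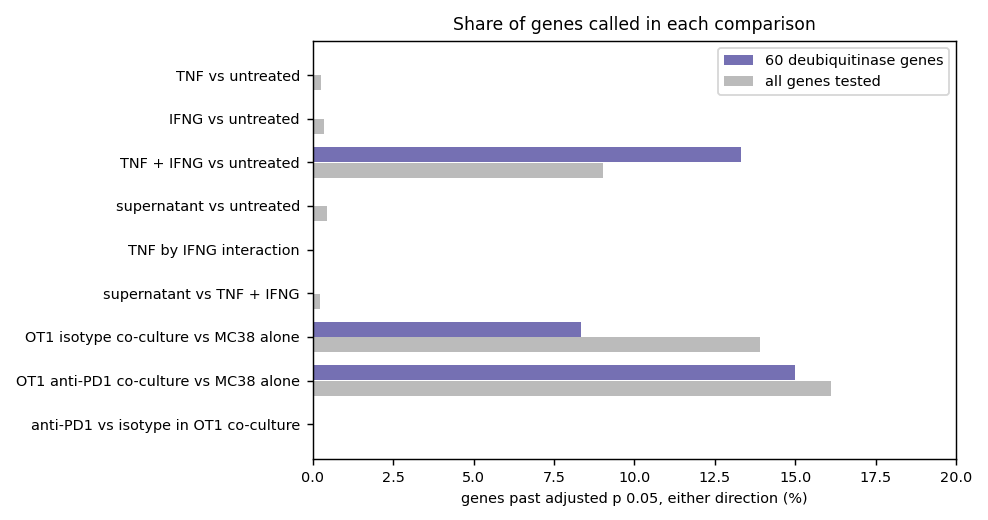
Share of genes called (%, adjusted p under 0.05, either direction) among the 60 deubiquitinase genes and among all genes tested, for each of 9 comparisons. Members were called in 3 comparisons only: 13.3% with TNF + IFNG, 8.33% in the isotype co-culture and 15% in the anti-PD1 co-culture, against 9.02%, 13.9% and 16.1% of all genes.

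Culture with OT1 T cells raised a small set of USP genes and 1 OTU gene in MC38 cultures. With anti-PD1, 7 members rose and 2 fell (15%, against 16.1% of all genes called, 8.42% higher and 7.71% lower). With isotype antibody, 5 rose and none fell (8.33%, against 13.9% of all genes called, 7.64% higher and 6.22% lower). At an unadjusted p under 0.05, 8 were higher and 7 lower with anti-PD1 (14.2% and 16.6% of all genes), and 11 higher and 3 lower with isotype (13.2% and 15.2%). Usp45, Usp42, Usp27x, Otud1 and Usp12 were called higher in both, and both comparisons use the same 3 libraries of MC38 alone. The share of all genes called higher in both was not counted. Groups did not overlap in 11 members that were higher and 10 that were lower with anti-PD1 (14.7% and 18.2% of all genes), and in 11 and 3 with isotype (14.0% and 17.8%). In these bulk samples, fewer cells of a type and less RNA per cell cannot be told apart, and the co-culture libraries hold RNA of T cells as well.

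Usp45 encodes a protease that acts on the DNA repair endonuclease subunit ERCC1. Its level was 5.56, 5.52 and 5.58 log2 CPM with anti-PD1 and 5.65, 5.96 and 5.41 with isotype, against 3.80, 4.11 and 4.01 in MC38 alone. Every co-culture library lay above every library of MC38 alone, by more than 1 log2 unit. Usp45 rose 2.99-fold with anti-PD1 (log2 fold 1.58 ± 0.15, adjusted p = 8.780e-05) and 3.25-fold with isotype (1.70 ± 0.15, adjusted p = 5.177e-05). The gene lies at chr4:21767156-21837872 (GRCm38, plus strand) and overlaps Tstd3 on the other strand. No source used here says whether counting used the strand. Tstd3 itself stood at 2.44 to 2.97 with anti-PD1 and 2.58 to 3.00 with isotype, against 1.85 to 2.25 in MC38 alone. Its folds were 0.61 (adjusted p = 0.114) and 0.74 (adjusted p = 0.0704), so it moved the same way at a far lower level without being called.

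Usp42, whose protease acts on p53 in the response to stress, was the most abundant of the genes that rose by more than 1 log2 unit. It stood at 6.47, 6.56 and 6.29 with anti-PD1 and 6.45, 6.34 and 6.51 with isotype, against 5.32, 5.02 and 5.32 in MC38 alone. The co-culture libraries lay close together, and none overlapped MC38 alone. Usp42 rose by 1.22 ± 0.13 on the log2 scale in both, 2.33-fold with anti-PD1 (adjusted p = 1.237e-04) and 2.32-fold with isotype (adjusted p = 1.218e-04). It lies at chr5:143710325-143732280, minus strand.

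Usp27x, an X-linked gene whose product takes ubiquitin off histones with the adaptors Eny2 and Atxn7l3 and stabilises the death protein BIM, had the largest fold among members and the lowest level of these 5 genes. Its values were 2.44, 2.81 and 2.73 with anti-PD1 and 2.62, 2.21 and 2.66 with isotype, against 1.17, 0.90 and 0.03 in MC38 alone. The lowest of these, in the third library of MC38 alone, lay on the lowest 3 read steps of that library. Usp27x rose 3.89-fold with anti-PD1 (1.96 ± 0.33, adjusted p = 0.00276) and 3.48-fold with isotype (1.80 ± 0.33, adjusted p = 0.00466). Without the third library of MC38 alone the log2 folds were 1.62 and 1.46 (adjusted p = 0.0013 and 0.00256). The gene lies at chrX:7371276-7375830, minus strand.

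Otud1, whose protease trims chains in NF-kB and interferon signalling, stood at 3.55, 3.91 and 4.43 with anti-PD1 and 4.06, 3.99 and 4.01 with isotype, against 2.73, 2.50 and 3.28 in MC38 alone. The groups did not overlap, though the third library of MC38 alone came close to the lowest anti-PD1 library. Otud1 rose 2.19-fold with anti-PD1 (1.13 ± 0.26, adjusted p = 0.0156) and 2.27-fold with isotype (1.18 ± 0.26, adjusted p = 0.0129). Without the third anti-PD1 library, whose labels conflict, its fold in that co-culture was 0.89 and the call was lost (adjusted p = 0.0601). It was also lost with isotype when the first isotype library was left out (adjusted p = 0.0506). Otud1 lies at chr2:19657752-19660583, plus strand.

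Usp12, which works with the activator Wdr48, moved least of these. Its values were 6.67, 6.80 and 6.63 with anti-PD1 and 6.87, 6.65 and 6.76 with isotype, against 6.48, 6.25 and 6.13 in MC38 alone. The groups were separate but close, and the rise was 1.33-fold with anti-PD1 (0.41 ± 0.12, adjusted p = 0.0404) and 1.39-fold with isotype (0.47 ± 0.12, adjusted p = 0.0254). Of 15 alternative settings the call held in 3 with anti-PD1 and 9 with isotype. Usp12 lies at chr5:146734809-146795006, minus strand.

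How much of these levels came from T cell RNA was not tested. The third library of MC38 alone held 63.6 CPM of T cell markers. In it, Usp45 (4.01) and Usp42 (5.32) stood no higher than the highest of the other libraries of MC38 alone, Usp27x (0.03) and Usp12 (6.13) were the lowest of the 3, and Otud1 (3.28) was the highest of the 3, toward the co-cultures. Nfkbia stood at 7.95 and Irf1 at 7.99 in it, near the 7.75 and 7.83 (Nfkbia) and 8.32 and 8.25 (Irf1) of the other libraries of MC38 alone. Without it, Usp45 was higher by 1.60 with anti-PD1 and 1.72 with isotype, Usp42 by 1.27 and 1.26, and Otud1 by 1.35 and 1.41, and these 3 remained called in both. Usp12 was then lost with anti-PD1 (adjusted p = 0.0672) and kept with isotype (adjusted p = 0.0421). The count of members called was 6 with anti-PD1 and 7 with isotype, when 20.2% and 17.5% of all genes were called. Without both that library and the third anti-PD1 library, an alternative chosen after seeing the data, it was 6 and 5, when 15.1% and 17% of all genes were called, with Usp45, Usp42, Usp27x and Otud1 among them each time.

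**Figure D3:**
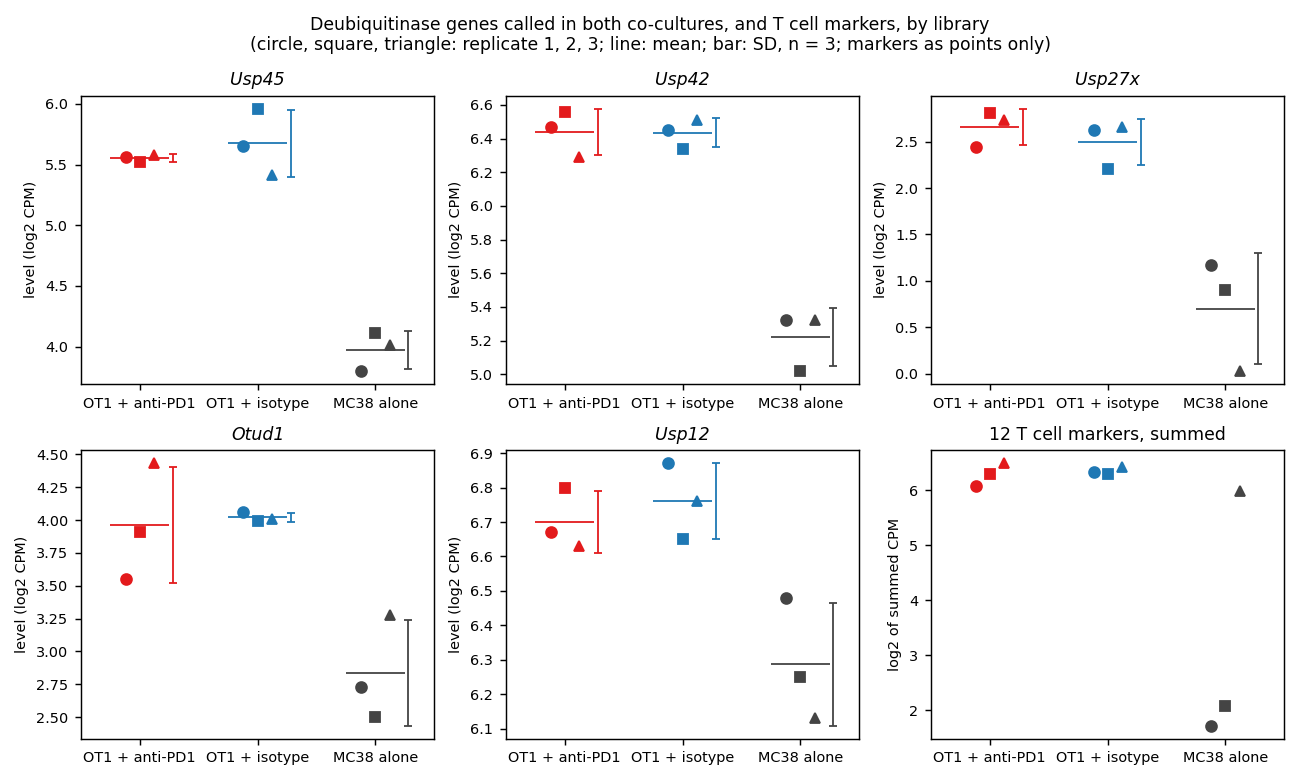
Level (log2 CPM) by library of the 5 genes called in both co-cultures, and log2 of the summed CPM of 12 T cell markers, in OT1 co-culture with anti-PD1, OT1 co-culture with isotype and MC38 alone (n = 3 each). Lines and bars are means and SD for the genes. The third library of MC38 alone (triangle) lies with the co-cultures for the markers and with MC38 alone for Usp45, Usp42 and Usp27x, and for Otud1 it is the highest of MC38 alone.

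A further 4 members passed the threshold with anti-PD1 and missed it with isotype. Usp25, which stabilises the adaptor TRAF3, stood at 5.48, 5.56 and 5.34 with anti-PD1, against 4.51, 5.05 and 5.09 in MC38 alone (0.58 ± 0.17, adjusted p = 0.0397). Usp31, linked to NF-kB inhibition, stood at 4.37, 4.07 and 3.88, against 3.68, 3.37 and 3.40 (0.62 ± 0.18, adjusted p = 0.0418). The histone deubiquitinase gene Usp3 was lower, at 4.45, 4.25 and 4.15, against 4.91, 4.52 and 5.00 (-0.53 ± 0.16, adjusted p = 0.049). Usp34, which acts on axin in Wnt signalling, was lower at 6.71, 6.52 and 6.30, against 6.96, 6.86 and 7.09 (-0.46 ± 0.14, adjusted p = 0.044). No library of one group overlapped the other in any of these 4, which 14.7% (higher) and 18.2% (lower) of all genes also met, and the margins were small. With isotype the same genes had folds of 0.47, 0.59, -0.53 and -0.25 (adjusted p = 0.0942, 0.0556, 0.052 and 0.267), and none of the 4 was called between the co-cultures (adjusted p = 1 each). Each of these 4 calls was lost in at least 10 of 15 alternative settings. Usp34 overlaps Ahsa2 on the other strand, which stood at 5.29 in the third library of MC38 alone and at 4.18 to 4.44 in the other 8.

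Promoters were examined for the genes that rose in both co-cultures. These genes were chosen by that rise, and with TNF + IFNG their folds differed in direction. Whether they share a control was not tested. RefSeq promoter windows of GRCm38.p6, from 250 bases before to 50 after a transcript start, were matched for 49 of the 60 members by symbol, in 53 windows. They are shown for 4 of the genes that rose, 5' to 3' on the strand of the gene, with a match to the interferon gamma-activated site motif TTCNNNGAA in capitals.
Usp45, chr4:21776020-21776319, plus strand: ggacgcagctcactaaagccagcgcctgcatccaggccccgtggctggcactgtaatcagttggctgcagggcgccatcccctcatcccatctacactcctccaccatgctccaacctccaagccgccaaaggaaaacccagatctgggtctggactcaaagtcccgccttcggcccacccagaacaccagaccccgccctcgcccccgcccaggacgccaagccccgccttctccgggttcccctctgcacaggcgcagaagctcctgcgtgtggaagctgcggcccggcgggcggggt
Usp27x, chrX:7375781-7376080, minus strand: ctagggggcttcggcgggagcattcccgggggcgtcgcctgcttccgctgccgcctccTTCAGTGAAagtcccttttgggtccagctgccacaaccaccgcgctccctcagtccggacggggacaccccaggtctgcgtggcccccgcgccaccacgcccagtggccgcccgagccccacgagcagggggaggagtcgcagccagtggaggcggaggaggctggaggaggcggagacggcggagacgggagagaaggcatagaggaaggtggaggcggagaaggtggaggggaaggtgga
Otud1, chr2:19657481-19657780, plus strand: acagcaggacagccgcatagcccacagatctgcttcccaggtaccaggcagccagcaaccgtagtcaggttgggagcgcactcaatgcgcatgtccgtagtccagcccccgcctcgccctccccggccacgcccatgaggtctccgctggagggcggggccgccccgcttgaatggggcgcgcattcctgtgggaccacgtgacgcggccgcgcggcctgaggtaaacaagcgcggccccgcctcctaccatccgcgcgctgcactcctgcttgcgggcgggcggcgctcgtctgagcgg
Usp12, chr5:146794907-146795206, minus strand: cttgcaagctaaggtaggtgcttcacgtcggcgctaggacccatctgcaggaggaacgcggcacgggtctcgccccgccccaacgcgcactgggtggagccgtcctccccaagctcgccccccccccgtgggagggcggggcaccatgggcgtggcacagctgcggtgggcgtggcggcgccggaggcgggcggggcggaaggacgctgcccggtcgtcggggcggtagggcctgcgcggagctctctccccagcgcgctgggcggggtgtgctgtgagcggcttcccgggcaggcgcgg
Usp42 had no entry. The Usp45 window lies inside the span given above for that gene, away from its first base at chr4:21767156. No window at that base was examined. Both strands were searched for 3 motifs. The kB motif, GGGA and TTCC with any 2 bases between, was in none of the 53 windows of members and in 1.5% of 32851 windows of all genes. TTCNNNGAA was in the windows of Usp27x and Usp50 (3.8%, against 8.3% of all windows), and the interferon-stimulated response motif, GAAA repeated after any 2 bases, in that of Usp49 (1.9%, against 3.4%). No window of a member held matches to more than 1 of the 3 motifs, so none overlapped. The windows of members were rich in G and C, with a median of 64.3%, against 52.7% over all windows, and those shown held 66.7% (Usp45), 70.3% (Usp27x and Otud1) and 75.7% (Usp12). A match is a description of letters in the window. At shares this low, few matches fall in 53 windows, and no difference from all windows was tested. The part of G and C content in the shares was not tested either.

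With TNF and IFNG together, the members called overlapped those of the co-cultures in Otud1 and Usp12 only. In vitro 4 rose and 4 fell with TNF + IFNG (13.3%, against 9.02% of all genes called, 4.77% higher and 4.25% lower). Those that rose were Usp39, Usp36, Otud5 and Otud3, and those that fell Josd1, Otud1, Usp12 and Usp38. At an unadjusted p under 0.05, 12 members were higher and 6 lower (15.9% and 15.2% of all genes). With n = 2 per group the groups did not overlap in 24 members that were higher and 13 that were lower (30.5% and 28.5% of all genes), so separation alone says little, and these calls were fragile. All 8 were lost without either untreated library or without the second TNF + IFNG library, which was the shallowest, and when only the groups compared were fitted. Of 15 alternative settings the call held in 11 for Usp39 and Josd1, 8 for Usp36, 7 for Otud1, 5 for Otud3, and 4 each for Otud5, Usp12 and Usp38.

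Usp39 encodes a splicing factor that has the protease fold without protease activity. Its level was 6.29 and 6.53 log2 CPM with TNF + IFNG, 5.69 and 5.69 with TNF, and 6.00 and 5.79 with IFNG, against 5.14 and 5.43 in untreated cells. All treated libraries lay above both untreated ones, and those with both cytokines were highest. Usp39 rose 2.18-fold with TNF + IFNG (1.13 ± 0.18, adjusted p = 0.0154). It lies at chr6:72318678-72345184, minus strand.

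Usp36, whose nucleolar protease acts on ribosome production factors and Myc, had 7.38 and 7.36 with TNF + IFNG, against 6.68 and 6.44 in untreated cells (1.75-fold, 0.81 ± 0.15, adjusted p = 0.0232). Otud5, also called DUBA, which limits type I interferon production through TRAF3, had 4.76 and 4.75, against 4.18 and 4.09 (1.54-fold, 0.62 ± 0.15, adjusted p = 0.0393). Otud3, a member of the OTU family, had 6.04 and 6.39, against 5.03 and 5.09 (2.22-fold, 1.15 ± 0.28, adjusted p = 0.0426). The groups were separate in each, and in Otud3 the single cytokines, at 4.84 to 5.53, stayed near the untreated level. Usp36 lies at chr11:118259651-118290244 and Otud3 at chr4:138895379-138913945, both on the minus strand, and Otud5 at chrX:7841364-7876626 on the plus strand.

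Josd1, a Josephin protease found at the plasma membrane, had 5.00 and 4.54 with TNF + IFNG, 5.61 and 5.39 with TNF, and 5.58 and 5.38 with IFNG, against 5.81 and 5.93 in untreated cells. Every treated library lay below both untreated ones. It fell 2.14-fold with TNF + IFNG (-1.10 ± 0.20, adjusted p = 0.0223). The gene lies at chr15:79674251-79687919, minus strand.

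Otud1 was at 0.64 and -0.03 with TNF + IFNG, 1.94 and 1.63 with TNF, and 1.82 and 1.07 with IFNG, against 2.10 and 2.33 in untreated cells. Its levels were low, on read steps 4 to 40 of the libraries, and both libraries with both cytokines lay below all others but the second supernatant library (0.26). It fell 3.76-fold (-1.91 ± 0.44, adjusted p = 0.0377), the largest fold among the 8. Usp12 had 5.88 and 6.05 with TNF + IFNG, against 6.82 and 6.73 in untreated cells (1.75-fold lower, -0.81 ± 0.18, adjusted p = 0.0356). Usp38, a protease with reported roles in interferon signalling, had 2.50 and 2.60, against 3.72 and 3.89 (2.39-fold lower, -1.26 ± 0.32, adjusted p = 0.0448). In neither gene did the groups overlap. Usp38 lies at chr8:80980733-81014928, minus strand.

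**Figure D4:**
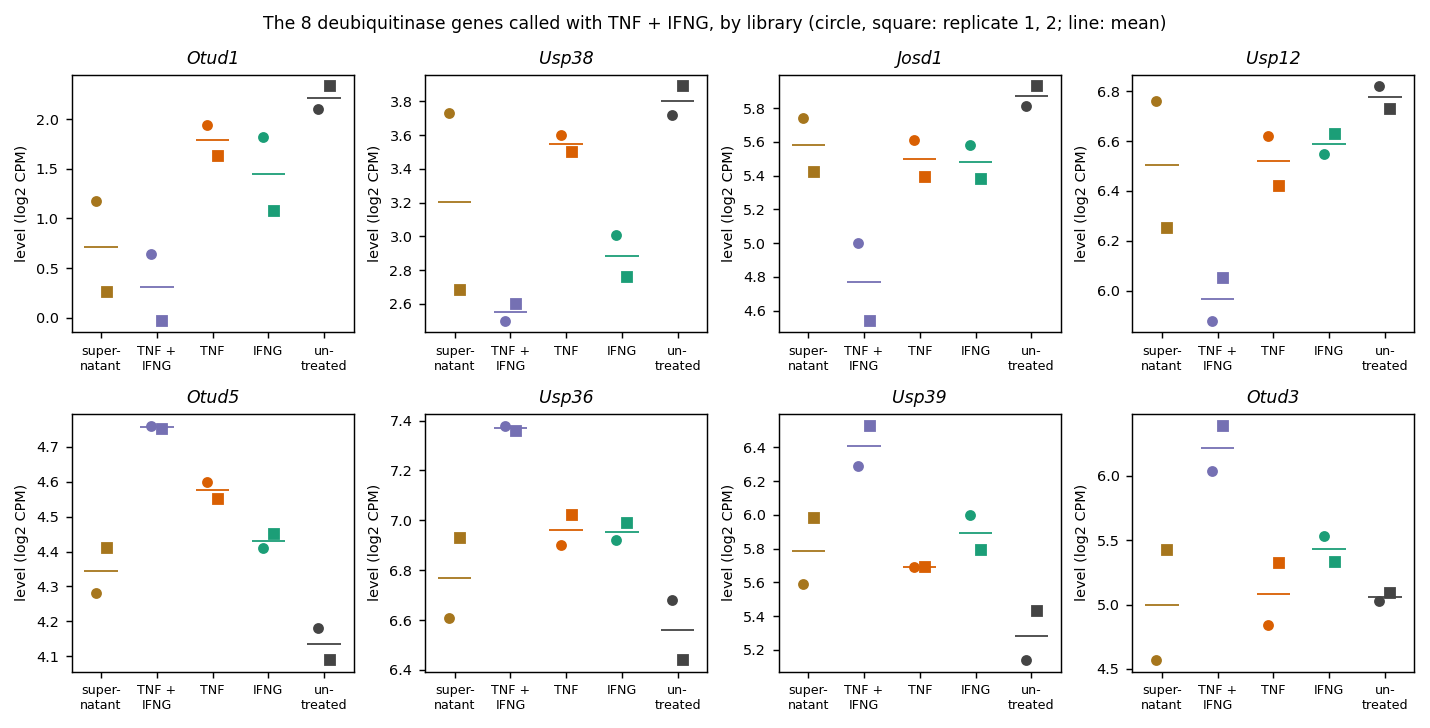
Level (log2 CPM) by library of the 8 genes called with TNF + IFNG, in cells given supernatant, TNF + IFNG, TNF or IFNG and in untreated cells (n = 2 each, lines are means). In all 8, which were chosen as called, the TNF + IFNG libraries lie apart from the untreated ones, as in 30.5% (higher) and 28.5% (lower) of all genes, and the TNF and IFNG libraries lie between them or near the untreated level.

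No member was called with either cytokine alone. With TNF, 0.275% of all genes were called by limma, and at an unadjusted p under 0.05 there were 5 members higher and 0 lower (3.93% and 2.33% of all genes). The smallest of these p-values was for Usp54, at 2.38 and 2.36 with TNF, against 1.49 and 1.42 in untreated cells (0.92 ± 0.28, adjusted p = 0.534). With IFNG, 0.354% of all genes were called, and 4 members were higher and 4 lower at an unadjusted p under 0.05 (5.08% and 5.62% of all genes). Usp39 stood at 0.61 ± 0.18 (adjusted p = 0.398), Usp45 at 0.83 ± 0.28 (adjusted p = 0.43) and Usp38 at -0.92 ± 0.32 (adjusted p = 0.431). The treatments themselves registered. Nfkbia was higher by 3.39 ± 0.14 with TNF, and Irf1 by 3.06 ± 0.12 with IFNG.

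Whether both cytokines did more than the sum of each was tested as an interaction, and no member was called by limma (0.0157% of all genes, 0.00786% in each direction). At an unadjusted p under 0.05, 3 members were higher and 2 lower (1.8% and 2.13% of all genes). For the 8 members called with TNF + IFNG the interaction ran from -0.71 (Otud1, ± 0.62) to 0.76 (Otud3), so these data do not show a departure from the sum of the single effects, and the median half-width of a member's 95% interval was 0.64 log2.

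Supernatant called no member either (0.448% of all genes by limma). At an unadjusted p under 0.05, 2 members were higher and 1 lower (3.48% and 1.64% of all genes). Otud1 was the lower one, at 1.17 and 0.26 with supernatant, against 2.10 and 2.33 in untreated cells (-1.50 ± 0.44, adjusted p = 0.566). The higher ones were Usp45, at 4.66 and 5.22, against 4.11 and 4.16 (0.81 ± 0.28, adjusted p = 0.76), and Usp39 (0.50 ± 0.18, adjusted p = 0.812). In all 3 the groups did not overlap, as in 13 members that were higher and 7 that were lower (17.0% and 15.0% of all genes), and none passed over all genes. Supernatant against TNF + IFNG also called none by limma (0.236% of all genes, 0.0629% higher and 0.173% lower). At an unadjusted p under 0.05, 2 members were higher and 8 lower (8.55% and 8.22% of all genes). Otud3 stood at 4.57 and 5.42 with supernatant, against 6.04 and 6.39 with TNF + IFNG (-1.22 ± 0.28, adjusted p = 0.133), and Josd1 at 5.74 and 5.42, against 5.00 and 4.54 (0.81 ± 0.20, adjusted p = 0.147). Without the second supernatant library 5 members were called (3.82% of all genes, against 0.236% with all libraries), Otud3, Usp3 and Usp36 lower and Usp12 and Usp38 higher, and in Otud3, Usp12 and Usp38 that library lay well apart from the first.

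Adding the PD1 antibody to the OT1 co-culture called no member and no gene at all (0% of all genes by limma, with 241 genes higher and 106 lower at an unadjusted p under 0.05, none of them a member). For the 5 genes that rose in both co-cultures the difference of anti-PD1 minus isotype was -0.12 for Usp45 (95% interval -0.46 to 0.23), 0.00 for Usp42 (-0.28 to 0.28), 0.16 for Usp27x (-0.56 to 0.88), -0.06 for Otud1 (-0.63 to 0.52) and -0.06 for Usp12 (-0.32 to 0.21). These intervals do not show that the antibodies left equal levels. Small negative values predominated, in 44 of 60 members (73.3%, against 52.3% of all genes), and 37 were negative without the third anti-PD1 library. The median over members was -0.06 and that over all genes -0.01.

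Otud1 and Usp12 were the 2 members called in both tables, and in opposite directions. How many of all genes were called in both tables, or in opposite directions, was not counted. Otud1 fell with TNF + IFNG by 1.91 and rose by 1.13 and 1.18 with OT1 T cells, and Usp12 fell by 0.81 and rose by 0.41 and 0.47. The Usp12 calls held in 4 of 15 alternatives with TNF + IFNG, 3 with anti-PD1 and 9 with isotype. The tables share no library, and no test across them was made. Usp45, Usp42 and Usp27x, which rose with T cells, had log2 folds of 0.77 ± 0.28 (adjusted p = 0.106), 0.14 and -0.07 with TNF + IFNG. Over all members the fold with TNF + IFNG had the same sign as that in the anti-PD1 co-culture in 23 of 60 (38.3%, against 50.1% of 12274 genes) and as that in the isotype co-culture in 30 of 60 (50%, against 55.0%). Both co-culture folds use the same libraries of MC38 alone. None of the 6 other genes called with TNF + IFNG was called in a co-culture.

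**Figure D5:**
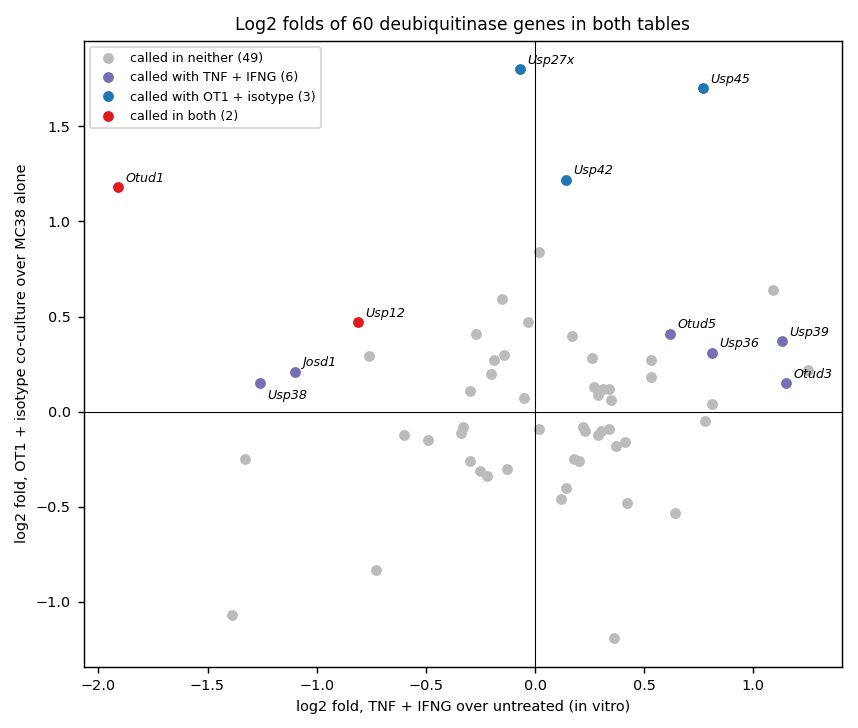
Log2 fold of each of the 60 genes with TNF + IFNG over untreated cells (horizontal) and in OT1 co-culture with isotype over MC38 alone (vertical). Otud1 and Usp12 (red) are called in both and lie in the upper left, and Usp27x, Usp42 and Usp45 (blue) are called in the co-culture only.

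Grouped by role, the calls fell in several groups. For reference, 9.02% of all genes were called with TNF + IFNG, 13.9% with isotype and 16.1% with anti-PD1. Of 15 members listed for a role in NF-kB or interferon signalling, Otud5 rose and Otud1 fell with TNF + IFNG, Otud1 rose with isotype, and Otud1 and Usp25 rose with anti-PD1. Usp31, which rose with anti-PD1, and Usp38, which fell with TNF + IFNG, have reported links to these pathways but were not on the list. The list's median folds were 0.27, 0.12 and 0.06. Medians were 0.16, 0.08 and -0.06 over all 60 members, and 0.02, -0.06 and -0.06 over all genes. Otud7b (Cezanne), which acts on chains at the TNF receptor, stayed between 5.48 and 5.96 in every co-culture library and between 5.89 and 6.34 in vitro. Usp4, Usp7 and Usp10 were likewise called nowhere. Of 7 listed chromatin members 6 were in the tables, and of these Usp27x rose in both co-cultures and Usp3 fell with anti-PD1. Bap1, the tumour suppressor that acts on histones with Asxl proteins, stood at 3.54 to 3.75 with anti-PD1 and 3.68 to 4.09 with isotype, against 3.51 to 3.74 in MC38 alone, and Usp16 and Usp22 were not called either. The proteasome-bound Usp14 and Uchl5 had no call in any comparison, and with TNF + IFNG their median fold was 0.33.

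Among close paralogues, 3 pairs had a called and an uncalled member, and no difference between paralogues was tested. Usp12 rose in both co-cultures while Usp46, which shares the activator Wdr48, stood at -0.48 (adjusted p = 0.0671) with anti-PD1 and -0.46 (adjusted p = 0.0914) with isotype. Usp46 was at 4.28, 4.48 and 4.16 with anti-PD1 and 4.31, 4.38 and 4.32 with isotype, against 4.51, 4.87 and 5.00 in MC38 alone. Josd1 fell with TNF + IFNG, and Josd2 stood at 0.14 ± 0.33 (adjusted p = 0.802). Usp25 rose with anti-PD1, and its paralogue Usp28 stood at -0.28 ± 0.19 (adjusted p = 0.355). Usp4, Usp11 and Usp15, which share a domain order, were called in none of the 9 comparisons, and neither were Usp9x and Usp24 or Otub1 and Otub2.

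Deubiquitinases outside the naming rule gave a comparison, with 24 tested from a list of 28 symbols with older names. In each co-culture 4 rose and 1 fell, and with TNF + IFNG 2 rose and 1 fell. Of all genes, 8.42% rose and 7.71% fell with anti-PD1, 7.64% and 6.22% with isotype, and 4.77% and 4.25% with TNF + IFNG. In co-culture the gene of A20, Tnfaip3, which trims chains at the TNF receptor, rose 8.43-fold with anti-PD1 (3.08 ± 0.39, adjusted p = 5.017e-04) and 5.84-fold with isotype (2.55 ± 0.39, adjusted p = 0.00169). Cyld, another brake on NF-kB, rose by 0.63 ± 0.15 and 0.59 ± 0.15, Usp18 by 1.48 ± 0.12 and 1.64 ± 0.12, and Fam188a by 0.59 ± 0.18 and 0.67 ± 0.18. Mysm1 fell with anti-PD1 (-0.50 ± 0.15) and Stambp with isotype (-0.48 ± 0.14). With TNF + IFNG, Usp18 (1.20 ± 0.31) and Brcc3 (0.60 ± 0.15) rose and Fam63b fell (-1.20 ± 0.25). No gene of this list was called with a single cytokine, with supernatant or between the antibodies, though some folds were large. Tnfaip3 stood at 7.25-fold with TNF (2.86 ± 0.85, adjusted p = 0.526) and 6.94-fold with TNF + IFNG (2.79 ± 0.85, adjusted p = 0.0706). Usp18 stood at 3.52-fold with IFNG (1.82 ± 0.31, adjusted p = 0.0705) and 2.84-fold with supernatant (adjusted p = 0.158).

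Of 14 partners of the members, 1 rose and 2 fell with TNF + IFNG (against 4.77% and 4.25% of all genes), 1 rose with anti-PD1 (8.42%) and none was called in the other comparisons. Adrm1, the proteasome receptor of Uchl5, rose with TNF + IFNG (0.93 ± 0.22, adjusted p = 0.0395). With the same cytokines Foxk1, a partner of Bap1, fell 3.09-fold (-1.63 ± 0.26, adjusted p = 0.0149) and G3bp1, the partner of Usp10, fell 1.79-fold (-0.84 ± 0.19, adjusted p = 0.0371). Gmps, the partner of Usp7, rose with anti-PD1 (0.39 ± 0.12, adjusted p = 0.0448). The activators Wdr48 and Wdr20 and the adaptors Eny2 and Atxn7l3, partners of Usp12 and Usp27x, were not called. Uba6, a ubiquitin-activating enzyme, fell with anti-PD1 (-0.41 ± 0.12, adjusted p = 0.0478).

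Several members are read with reserve because of where they lie. Usp50 was the most variable in vitro, at 3.09 and 7.72 in the untreated libraries, and the second library was the higher in each in vitro group. It overlaps Usp8 on the opposite strand and Gm10774 on the same strand (chr2:126709096-126783470). Usp8 itself stood at 5.10 and 5.13 in the untreated libraries. Uchl4 is a near copy of Uchl3 and lies inside Map2k1, and its reads may be split between copies. It ranged from -1.03 to 2.18 in vitro and from -1.60 to 1.59 in co-culture and was called nowhere.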

How the data were processed

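RNA of 19 MC38 libraries was used, 10 in the in vitro table and 9 in the co-culture table; 9 libraries of OT1 T cells in the series were not analysed here. The deposited values are log2 CPM per gene, which the authors made alike in distribution between the libraries of a table, as read from the values. Libraries were 3' mRNA libraries (QuantSeq), per the labels' protocols. The submitters' processing notes name the builds mm10 and GRCm38 and the tools HISAT2, Subread, featureCounts, limma, cutadapt 1.7 and FastQC, with no order. Raw counts were not used here, and implied reads come from the number of distinct value steps up to the median, assuming that every whole count occurs.

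Group means of each table were estimated in 1 limma fit (version 3.58.1, R 4.3.3), and variances were moderated by empirical Bayes with a trend on mean level. Genes entered when 2 (in vitro) or 3 (co-culture) libraries had a log2 value of 0 or more. This removed 0 of 12721 in vitro genes and 239 of the 12948 co-culture genes, and 1 and 2 genes of constant value were left out, so 12720 and 12707 were tested. All 60 members passed. P-values are 2-sided and adjusted by the Benjamini-Hochberg method over all genes tested, with a threshold of 0.05. Residual degrees of freedom were 5 in vitro and 6 in co-culture, to which the prior added 3.74 and 4.12. The scripts were tested on simulated data. Alternatives were no filter, a filter at a log2 value of 2, no intensity trend, only the groups compared, a replicate block and each library left out.

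Members named with values were those called in a comparison, the 3 highest and 3 lowest by level in each table, and examples from role lists and paralogue pairs; genes that overlap a called member were added after values were seen. The members and lists were chosen with earlier results of these data known. A gene of the lists is not reported here. Coordinates are GENCODE's for GRCm38, given for the genes called in both co-cultures or with TNF + IFNG and for Usp50.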

Additional observations from a re-analysis of the deposited data

How the results depend on the processing

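The counts of 0 called members with TNF, IFNG, supernatant, the interaction and anti-PD1 against isotype were 0 in all 15 alternatives each. The 8 called with TNF + IFNG were 3 without the intensity trend and 0 with only the groups compared, and 0 to 10 with a library left out; over all genes the count was 1147, and 467 and 145 in these 2 settings and 88 and 121 without an untreated library. The 9 with anti-PD1 were 4 without the trend, 3 with only the groups compared (1251 of all genes, against 2050), and 4 to 7 with a library left out. The 5 with isotype were 3 to 7 with a library left out. Supernatant against TNF + IFNG gave 0 to 5 that way. Over all genes, counts moved by more than 1.5 times to 18 without the trend and 61 with only the groups compared (35 with TNF), 480 with only the groups compared (45 with IFNG), 37 (57 with supernatant), 4 (30 for supernatant against TNF + IFNG, and 16 with a replicate block), and 1 without the trend (2 for the interaction). With a library left out they ran from 11 to 41 with TNF, 29 to 50 with IFNG, 88 to 2155 with TNF + IFNG, 46 to 65 with supernatant, 0 to 9 for the interaction, 12 to 486 for supernatant against TNF + IFNG, 1226 to 2571 with anti-PD1, 1006 to 2223 with isotype (1761 with all libraries), and 0 to 1 for anti-PD1 against isotype. The cause was not tested. No called member changed direction in any alternative. Usp45, Usp42 and Usp27x kept their calls in all 15 alternatives in both co-cultures, with adjusted p up to 0.00111, 0.00162 and 0.0275.

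Between same-numbered libraries, correlations of deviations from group means ran from -0.29 to 0.11. With n = 2 per group, both in vitro numbers give the same correlation by construction. Low correlations cannot exclude that the numbers pair samples, so a replicate block was also fitted. With a replicate block, 5 members were called with TNF + IFNG (594 of all genes), 4 with anti-PD1 (1707) and 5 with isotype (1497), and 0 in the other comparisons. With crossed numbers for supernatant against TNF + IFNG, added after seeing the data, 0 members and 19 genes were called, against 16 genes with the block. A left-out library leaves 1 sample in an in vitro group, assumed to vary like the other groups. Depth limits the lowest members, Uchl1, Usp13, Usp2 and Otub2, and Usp27x in MC38 alone.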
